A study of Mus musculus with 8 samples.

Results

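The Serpina genes encode the clade A serpins, the secreted protease inhibitors and hormone carriers that the liver supplies to plasma. The 10 genes described here were chosen by symbol from the 24940 genes counted in mouse liver. They were Serpina1a and Serpina1e (α1-antitrypsins), Serpina3k, Serpina3m and Serpina3n (relatives of α1-antichymotrypsin), Serpina6 (corticosteroid-binding globulin), Serpina7 (thyroxine-binding globulin), Serpina10 (protein Z-dependent protease inhibitor), Serpina11 and Serpina12 (vaspin). The choice was made with the outcome of the genotype comparison known, so their values in that comparison are given as a description without p-values. All 10 passed the filter on low counts that 12340 genes passed.

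A serpin presents an exposed loop as bait to a protease, and cleavage of the loop springs the protein into a form that holds the protease in a dead covalent complex. Some clade A members have lost inhibitory function and use the same fold to carry a hormone, which is released when the loop is cut. Where human has a single SERPINA1 and a single SERPINA3 gene, the mouse has expanded both into neighbouring copies that differ in the loop and hence in the proteases they meet.

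RNA-seq was performed on whole liver from C57BL/6 males of 2 genotypes, with 4 livers each. FXRKO mice (livers 1 to 4, labelled Bcl6(fl/fl), FXR(homo)) carry floxed Bcl6 alleles with no Cre and lack the bile acid receptor FXR in the whole body. BCL6LKOFXRKO mice (livers 5 to 8, labelled Alb-Cre, Bcl6(fl/fl), FXR(homo)) have the same alleles plus Albumin-Cre, which is active in hepatocytes and removes part of the gene for the repressor BCL6 there. Loss of FXR and the floxed Bcl6 alleles were thus shared by both groups, and the comparison asked what loss of hepatocyte Bcl6 adds when FXR is absent. The presence of Cre, the loss of Bcl6 and any liver disease of the double mutants cannot be told apart in this design, and the ages of the mice are not given in the sources used here.

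The libraries held 7586241 to 11839503 gene counts, and livers of a genotype differed from each other by more than sampling noise (chi-square per degree of freedom 10.7 to 49.3), so no library was a repeat of another. Nothing in the labels names litters, cages or processing days. Bcl6, the targeted gene, stood at 56.3, 65.2, 21.2 and 55.6 CPM (the unit of all levels here, library-scaled counts after TMM normalization) in FXRKO livers and at 11.9, 4.61, 5.55 and 7.72 CPM in BCL6LKOFXRKO livers, so the genotypes did not overlap. Nr1h4, which encodes FXR, was still counted in both (59.96 ± 2.46 and 43.5 ± 3.69 CPM, mean ± SD, n = 4), and counts over all exons do not show whether the message is intact. The 10 hepatocyte markers summed to 72312 to 85905 CPM in FXRKO and 152665 to 174758 CPM in BCL6LKOFXRKO livers, of which albumin made up most. Alb was 3.04-fold higher, while 2 of the other markers were called lower, beside 9.84% of all tested genes.

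5 of the Serpina genes share most of their promoter, and they are shown here because they moved apart between the genotypes. Within the 250 bases before their annotated starts, Serpina1a to Serpina1e hold a common block of 188 to 190 bases (RefSeq, GRCm38.p6, minus strand of chromosome 12, printed 5′ to 3′). Its limits are set by that window: it runs from -250 to -63 in Serpina1e and from -189 to -1 in Serpina1d. In the other copies it runs from -193 to -6 (Serpina1a), -200 to -11 (Serpina1b) and -199 to -12 (Serpina1c). Capitals mark the bases of alignment columns that are not the same in all 5 genes, 23 of 191 columns. The blocks lie at chr12:103863625-103863812 (Serpina1a), chr12:103738200-103738389 (Serpina1b), chr12:103904962-103905149 (Serpina1c), chr12:103773634-103773822 (Serpina1d) and chr12:103956960-103957147 (Serpina1e).
Serpina1a: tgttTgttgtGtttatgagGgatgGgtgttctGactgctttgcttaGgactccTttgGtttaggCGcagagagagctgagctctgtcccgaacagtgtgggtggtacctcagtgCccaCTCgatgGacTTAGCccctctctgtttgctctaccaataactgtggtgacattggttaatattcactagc
Serpina1b: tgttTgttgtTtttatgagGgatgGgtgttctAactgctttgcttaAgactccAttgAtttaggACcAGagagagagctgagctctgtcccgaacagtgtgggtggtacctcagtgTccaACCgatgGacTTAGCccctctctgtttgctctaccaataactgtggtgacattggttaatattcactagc
Serpina1c: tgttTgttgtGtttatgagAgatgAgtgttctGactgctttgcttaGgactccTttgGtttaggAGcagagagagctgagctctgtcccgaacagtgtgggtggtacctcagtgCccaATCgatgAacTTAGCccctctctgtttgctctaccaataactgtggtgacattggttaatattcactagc
Serpina1d: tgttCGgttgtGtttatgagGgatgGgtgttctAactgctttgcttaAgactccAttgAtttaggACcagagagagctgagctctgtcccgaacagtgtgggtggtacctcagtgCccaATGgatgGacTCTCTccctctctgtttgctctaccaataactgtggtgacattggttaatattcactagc
Serpina1e: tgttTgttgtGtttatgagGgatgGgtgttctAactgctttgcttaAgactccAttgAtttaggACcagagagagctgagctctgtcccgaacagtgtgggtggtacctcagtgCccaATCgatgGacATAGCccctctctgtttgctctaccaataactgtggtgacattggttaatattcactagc

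Pairs of these blocks were identical at 92.1% to 97.3% of their aligned columns. Serpina1e alone differed from the other 4 genes at 1 column, and 168 columns were common to all 5.

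Across the 10 genes, 2 were called higher in BCL6LKOFXRKO livers (Serpina6 and Serpina10) and 4 were called lower (Serpina1e, Serpina3k, Serpina7 and Serpina12). A gene was called where edgeR's quasi-likelihood test gave a Benjamini-Hochberg adjusted p under 0.05 with an absolute log2 fold change over 0.5. Over all genes tested, 14.1% were called higher and 9.84% lower. The median log2 fold change of the 10 genes was -0.50, beside 0.01 over all tested genes. In 2 genes every BCL6LKOFXRKO liver lay above every FXRKO liver and in 3 every one lay below, where 16.1% and 15.2% of all tested genes did so, 31.3% in either direction. These counts restate the contrast on which the genes were chosen, and nothing is read from their excess. Because whole liver was measured, fewer cells of a type and less RNA per cell cannot be told apart.

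**Figure D1:**
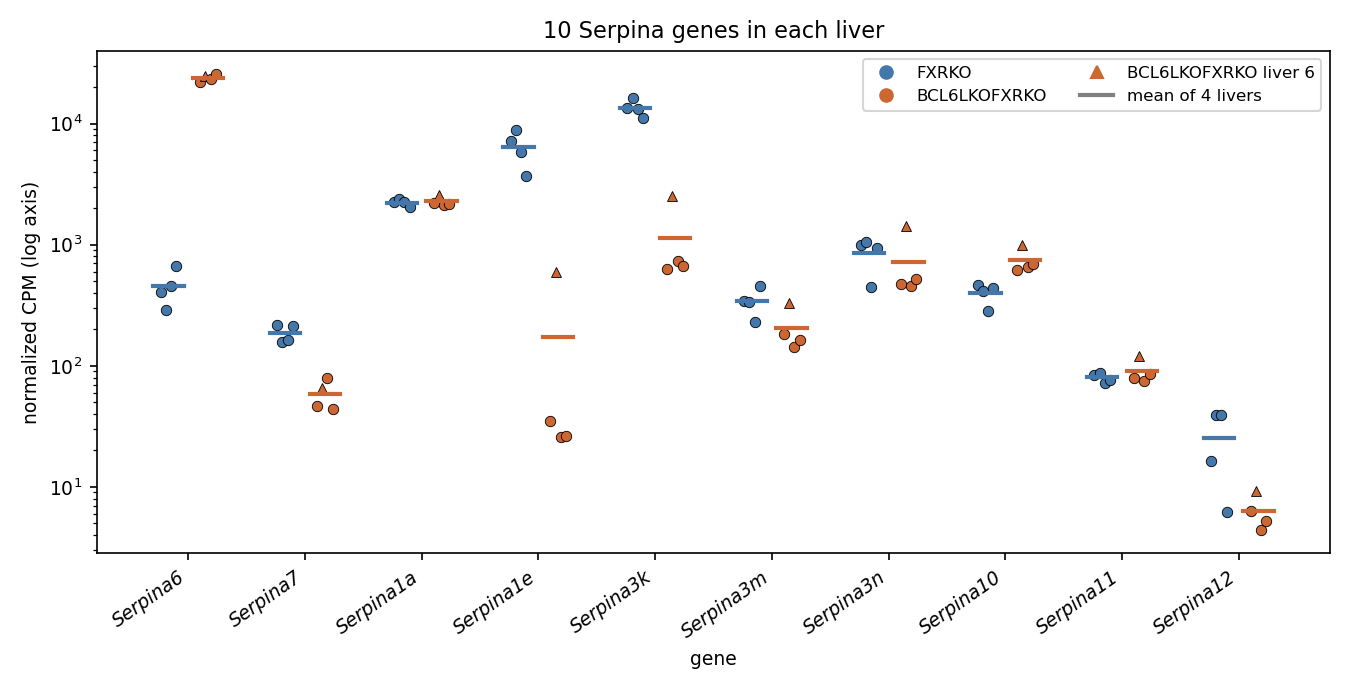
Normalized CPM (log axis) of the 10 Serpina genes in each of 8 livers, blue for FXRKO and orange for BCL6LKOFXRKO, with a bar at the mean of 4 livers and a triangle for BCL6LKOFXRKO liver 6. Serpina6 sits near 23907 CPM in BCL6LKOFXRKO against 454.9 CPM in FXRKO livers, Serpina1e and Serpina3k show the opposite order, and liver 6 is the highest of its genotype in 8 of the 10 genes.

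The 2 hormone carriers differed between the genotypes in opposite directions. Serpina6 encodes corticosteroid-binding globulin, also called transcortin, which binds most glucocorticoid in plasma and gives it up when neutrophil elastase cuts its loop. It was counted at 405, 287, 456 and 671 CPM in FXRKO livers and at 21889, 24694, 23173 and 25874 CPM in BCL6LKOFXRKO livers. Every BCL6LKOFXRKO liver exceeded every FXRKO liver many times over, and the spread among the 4 high livers was small (coefficient of variation 7.29%, against 35.3% in FXRKO). The log2 fold change was 5.72 ± 0.25 (SE; 95% interval 5.16 to 6.27), or 52.5-fold. These values rested on 2300 to 7092 counts per FXRKO library and 203483 to 284950 counts per BCL6LKOFXRKO library. Per kilobase of transcript, Serpina6 went from rank 251 among all genes in FXRKO to rank 5 in BCL6LKOFXRKO. Leaving out any 1 liver kept the log2 fold change between 5.54 and 5.96.

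Serpina7 encodes thyroxine-binding globulin, the high-affinity plasma carrier of thyroid hormone, and is the one Serpina gene counted on the X chromosome (chrX:139079250-139085236). FXRKO livers held 215, 158, 164 and 215 CPM and BCL6LKOFXRKO livers 46.3, 65.5, 78.6 and 43.9 CPM. The genotypes did not overlap, and the highest double mutant liver, liver 7, was still below the lowest FXRKO liver. Serpina7 was 3.21-fold lower (log2 fold change -1.68 ± 0.19, 95% interval -2.09 to -1.27).

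Among the α1-antitrypsin genes, whose products restrain neutrophil elastase and related enzymes, Serpina1e was lower in BCL6LKOFXRKO livers and Serpina1a was not called. Serpina1e was counted at 7176, 8835, 5859 and 3664 CPM in FXRKO livers and at 34.7, 598, 25.8 and 26.5 CPM in BCL6LKOFXRKO livers. The genotypes did not overlap, but liver 6 held many times the Serpina1e of the other 3 double mutants and fell far from them. The log2 fold change was -5.22 ± 1.40 (95% interval -8.60 to -1.85) with that liver and -7.79 without it. The call was lost in 7 of the 8 fits that left out 1 liver and was kept when liver 6 was the one left out.

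Serpina1a, in contrast, was counted at 2246, 2375, 2240 and 2031 CPM in FXRKO and 2224, 2582, 2120 and 2171 CPM in BCL6LKOFXRKO livers. The genotypes overlapped throughout. Its log2 fold change of 0.03 ± 0.12 had an interval of -0.23 to 0.29, so a change of more than 0.29 in either direction lay outside it, and the sign turned with scaling to total counts (-0.13). The α1-antitrypsin copies are close enough to share reads: of the 100-base windows of the annotated transcript (GENCODE M21), 81.8% were unique to Serpina1e but only 50.1% to Serpina1a. The aligner kept only reads with a single best place, so levels of the copies are taken from the part of each transcript that is not shared.

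The 3 tested copies that lie beside them and were not among the 10 genes were examined with the same fit. Serpina1b was 4940 ± 305 CPM in FXRKO and 7479 ± 460 CPM in BCL6LKOFXRKO livers and rose (log2 fold change 0.60 ± 0.12, edgeR adjusted p = 0.00211), with all 4 double mutant livers above all 4 FXRKO livers. With scaling to total counts its log2 fold change of 0.44 was under the threshold for a call. Serpina1c fell from 3414 ± 512 to 1173 ± 342 CPM (log2 fold change -1.54 ± 0.19, edgeR adjusted p = 6.78e-05), again without overlap. Serpina1d did not pass (2893 ± 285 and 3301 ± 234 CPM, log2 fold change 0.19 ± 0.12, edgeR adjusted p = 0.268). Of 100-base windows, 73.6% were unique to Serpina1b, 41.5% to Serpina1c and 70.7% to Serpina1d, so reads shared between copies bear most on Serpina1c, while Serpina1e had the widest interval of the 5. Genes that share the printed promoter block were thus higher (Serpina1b), lower (Serpina1c and Serpina1e) or not called (Serpina1a and Serpina1d). The blocks of Serpina1c and Serpina1e were identical at 95.2% of columns, and those of Serpina1a and Serpina1c at 97.3%. Whether the blocks bear on the differences between genotypes was not tested.

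Together the 5 α1-antitrypsin genes took 2.10 ± 0.32% of all counts in FXRKO and 1.36 ± 0.11% in BCL6LKOFXRKO livers, with no overlap in that share. In normalized CPM the same sums were 19855 ± 3045 and 14398 ± 1444 and did overlap, liver 6 at 16462 CPM standing above FXRKO liver 4 at 15992 CPM. At the level of single copies, the mean of Serpina1e went from rank 14 per kilobase among all genes to rank 492, while that of Serpina1b went from rank 19 to rank 10. Liver 6 raised the Serpina1e mean: it held 438 CPM per kilobase, and livers 5, 7 and 8 held 25.4, 18.9 and 19.4.

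The Serpina3 group stems from the gene for α1-antichymotrypsin, an inhibitor of chymotrypsin-like proteases and an acute phase protein. Serpina3k encodes a kallikrein-binding member of plasma. It was counted at 13516, 16236, 13159 and 11071 CPM in FXRKO livers and at 633, 2516, 734 and 667 CPM in BCL6LKOFXRKO livers. All 4 double mutant livers were far below all FXRKO livers, with liver 6 again apart from the other 3. The log2 fold change was -3.57 ± 0.51 (95% interval -4.76 to -2.38), 11.9-fold lower, and the rank of its mean per kilobase went from 4 to 88.

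Serpina3m, a close copy next to Serpina3k, was counted at 342, 338, 229 and 454 CPM in FXRKO and 184, 327, 142 and 163 CPM in BCL6LKOFXRKO livers. Liver 6 at 327 CPM overlapped with the FXRKO range, and the other 3 double mutants lay below it. The log2 fold change of -0.74 ± 0.28 (95% interval -1.36 to -0.12) was not called. It was called without BCL6LKOFXRKO liver 6 (-1.07), without FXRKO liver 3 (-0.90), by DESeq2 (-0.76) and with scaling to total counts (-0.91).

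Serpina3n encodes a leukocyte serine protease inhibitor that hepatocytes make in the acute phase response. FXRKO livers held 991, 1045, 444 and 942 CPM and BCL6LKOFXRKO livers 470, 1420, 460 and 524 CPM. Both groups had 1 liver out of step, FXRKO liver 3 low and BCL6LKOFXRKO liver 6 high, and the log2 fold change of -0.25 ± 0.44 (95% interval -1.27 to 0.77) was not called. Without liver 6 it was -0.83 and called. Windows of 100 bases were unique for 95.1% of Serpina3k, 93.9% of Serpina3m and 99.8% of Serpina3n.

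The 11 Serpina3 genes together went from 1.55 ± 0.23% to 0.194 ± 0.13% of all counts, with each double mutant liver below each FXRKO liver. Of those outside the 10 genes, Serpina3g and Serpina3f were tested and did not pass. Serpina3g stood at 12.3 ± 5.17 and 17.4 ± 4.39 CPM (edgeR adjusted p = 0.213) and Serpina3f at 3.44 ± 1.24 and 4.50 ± 0.99 CPM (edgeR adjusted p = 0.329). The annotated spans of these 2 genes share 6586 bases on the same strand, so their counts are uncertain. Serpina3h had 2 to 11 counts per library and Serpina3i 1 to 8, too few to test, with overlapping genotypes. Serpina3c had 0 to 6 counts per library and Serpina3b 0 to 4.

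Serpina10, Serpina11 and Serpina12 are single genes with distinct roles. Serpina10 encodes the inhibitor that, with protein Z, blocks coagulation factor Xa on membranes. It was counted at 461, 411, 281 and 439 CPM in FXRKO and 619, 996, 659 and 697 CPM in BCL6LKOFXRKO livers. The groups did not overlap, liver 6 being the highest, and Serpina10 was 1.87-fold higher (log2 fold change 0.90 ± 0.18, 95% interval 0.50 to 1.30). Without liver 6 the log2 fold change was 0.72 and the call stayed.

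Serpina12 encodes vaspin, a kallikrein 7 inhibitor known as an insulin-sensitizing factor of adipose tissue. It had the lowest level per kilobase of the 10 in every liver, and was counted at 16.2, 39.5, 39.3 and 6.24 CPM in FXRKO and 6.35, 9.22, 4.38 and 5.27 CPM in BCL6LKOFXRKO livers. FXRKO liver 4 lay within the double mutant range. Its log2 fold change was -2.01 ± 0.59 (95% interval -3.37 to -0.65), and the call was lost with limma voom, with no filter on low counts, and when any of FXRKO livers 2 and 3 or BCL6LKOFXRKO livers 5, 7 and 8 was left out. The adipocyte markers Plin1 and Lep had 0 counts in all livers and Adipoq and Retn were at or under 3 counts, and the 10 markers summed to 145 to 172 CPM in FXRKO and 128 to 198 CPM in BCL6LKOFXRKO livers. Of the 5 adipocyte markers tested, 2 were called lower without overlap, Lipe (25.8 ± 5.39 to 12.9 ± 1.82 CPM) and Cfd (5.77 ± 5.17 to 0.129 ± 0.12 CPM). Over all tested genes, 9.84% were called lower, and 15.2% had every double mutant liver below every FXRKO liver. The part of these markers in the Serpina12 values was not tested.

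Serpina11, a serpin of little known function, held 84.4, 87.3, 72.7 and 76.6 CPM in FXRKO and 79.1, 120, 75.5 and 85.9 CPM in BCL6LKOFXRKO livers. The groups overlapped apart from liver 6, and the log2 fold change of 0.17 ± 0.15 (95% interval -0.15 to 0.48) was not called. It was -0.01 without liver 6. Of its windows, 57.6% were unique, the rest being shared with the predicted gene Gm28577.

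BCL6LKOFXRKO liver 6 was the highest of its genotype for 8 of the 10 genes, all but Serpina6 and Serpina7, and for Serpina1e, Serpina3k and Serpina3n it stood apart from the other 3. This liver had the lowest Bcl6 count of the 8, at 4.61 CPM. Over all 12340 tested genes it stood apart from its group in 204, where liver 8 did so in 472 and the other 6 livers in 77 to 200. FXRKO liver 2 was the highest of its genotype for 6 of the 10 genes. The 10 genes varied more within genotypes than most: their median coefficient of variation was 23.6% in FXRKO and 30.8% in BCL6LKOFXRKO livers, beside 9.85% and 14.3% over the 6076 genes counted at least as highly as the lowest of them.

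9 of the 10 genes lie in one cluster with other Serpina genes, so the order of genes was set beside the differences. The cluster of 25 counted genes spans 797.655 kb of chromosome 12 (chr12:103616675-104414329, mm10), from Serpina10 to Serpina3n. At the Serpina10 end, Serpina10, Serpina6, Serpina16, Serpina1f and Serpina1b, the 5 genes in a row, were each higher in all 4 double mutant livers than in all 4 FXRKO livers. Of all tested genes, 16.1% did so. Serpina6 and Serpina10 were chosen with this contrast known. Serpina1f was too low to be among the tested genes, and Serpina16 was among them only through its BCL6LKOFXRKO counts. Whether the row of genes differs from that share was not tested. The next genes were Serpina1d and Serpina1a, not called, followed by Serpina1c and Serpina1e, lower.

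Serpina16 and Serpina1f were close to silent in FXRKO livers, with 0, 1, 0 and 0 counts for each gene. Serpina16 was counted at 7.05, 12.7, 11.6 and 10.53 CPM in BCL6LKOFXRKO livers (70 to 119 counts), and it passed the filter on low counts only through this genotype, so no test is given. Pooled over livers, the 410 counts against 1 gave a 390-fold ratio (exact 95% counting interval 69.5 to 15426). Serpina1f had 9 to 25 counts per BCL6LKOFXRKO library, too few for the test, and its 66 counts against 1 gave a 62.7-fold ratio (10.9 to 2514). These intervals, and the floor of 3 counts used below, cover counting error only.

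In the middle of the cluster, Serpina9 had 4 to 34 counts per FXRKO library and 0 to 3 per BCL6LKOFXRKO library and was not tested for low counts, its 62 counts against 5 giving a 13.0-fold lower level (exact 95% counting interval 5.30 to 41.6). Serpina4-ps1, a pseudogene, was counted at 19.6, 28.2, 55.3 and 2.27 CPM in FXRKO livers and had 0 counts in all 4 double mutants, at least 85.7-fold lower against a floor of 3 counts per library. FXRKO liver 3 was the highest, and the bound was 54.2-fold without it, a setting chosen after seeing the data. It passed the filter only through FXRKO, so no test is given. Serpina5, which encodes the protein C inhibitor, had at most 1 count per library, and Serpina3a and Serpina3j had at most 2.

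**Figure D2:**
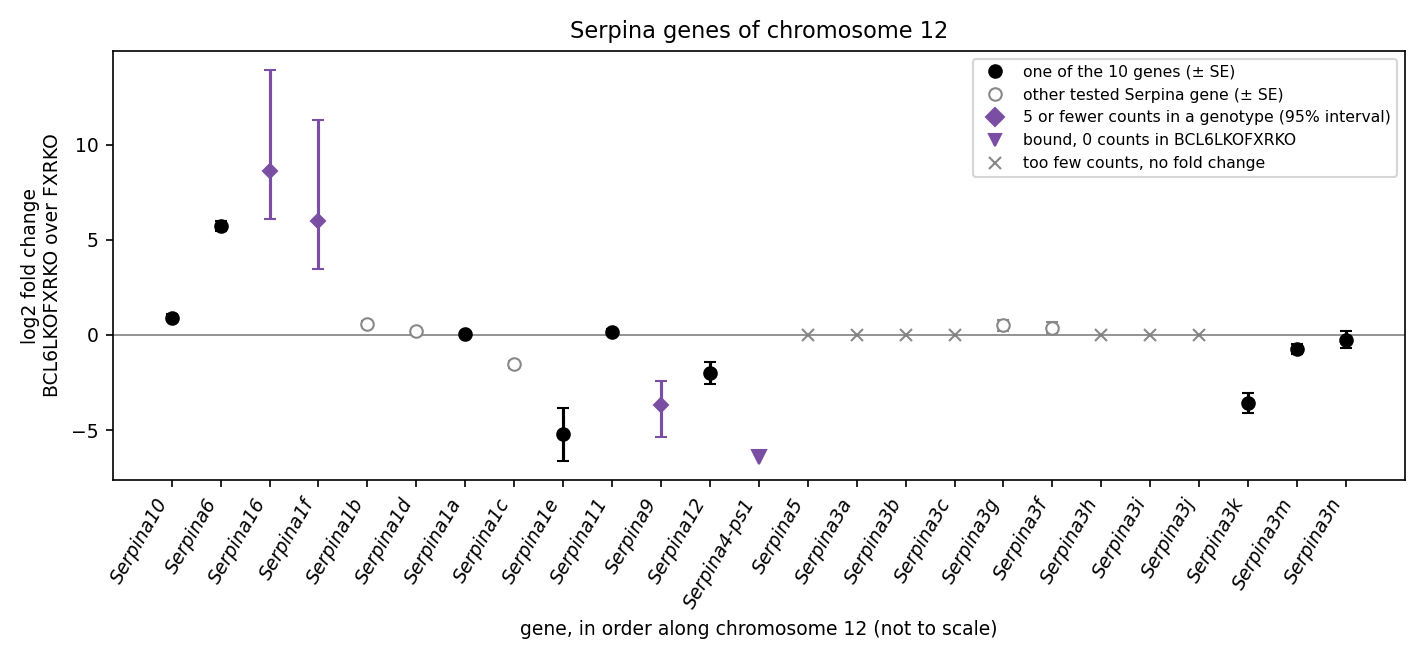
Log2 fold change (BCL6LKOFXRKO over FXRKO, ± SE, n = 4 livers each) of the 25 Serpina genes of chromosome 12 in their order along it, filled for the 9 of the 10 genes that lie there and open for other tested genes, with diamonds and 95% counting intervals for genes of 5 or fewer counts in a genotype, a triangle for the bound of Serpina4-ps1 and crosses where counts were too few. Points at the left end from Serpina10 to Serpina1b lie above 0, with Serpina6 at 5.72, and Serpina1c, Serpina1e, Serpina12 and Serpina3k lie below 0 with the lowest fitted value at -5.22.

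Although single genes differed many-fold, the sum of the family overlapped between the genotypes. All 26 Serpina genes took 3.77 ± 0.53% of gene counts in FXRKO and 3.89 ± 0.21% in BCL6LKOFXRKO livers, and the 10 genes took 2.58 ± 0.46% and 2.76 ± 0.19%. Without Serpina6 the family took 3.73 ± 0.55% and 1.64 ± 0.24%, with no overlap. Within the family, Serpina6 made up 0.683% to 2.25% of Serpina counts in FXRKO livers and 52.9% to 62.8% in BCL6LKOFXRKO livers. Serpina3k made up 37.1% to 38.6% in FXRKO and 1.62% to 5.39% in BCL6LKOFXRKO livers, and Serpina1e 12.3% to 21.0% and 0.0643% to 1.28%. Reads shared between copies were not kept, so these shares can undercount the α1-antitrypsin genes. Of their 100-base windows 41.5% (Serpina1c) to 81.8% (Serpina1e) were unique, against 100% for Serpina6. Per kilobase, the highest Serpina level was that of Serpina3k in every FXRKO liver and of Serpina6 in every BCL6LKOFXRKO liver. A share of counts depends on what else is counted: the 50 most counted genes took 30.8 ± 0.62% of counts in FXRKO and 41.8 ± 1.57% in BCL6LKOFXRKO livers. With those outside the 10 genes left out of the total, the 10 genes took 3.61% and 4.57%.

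**Figure D3:**
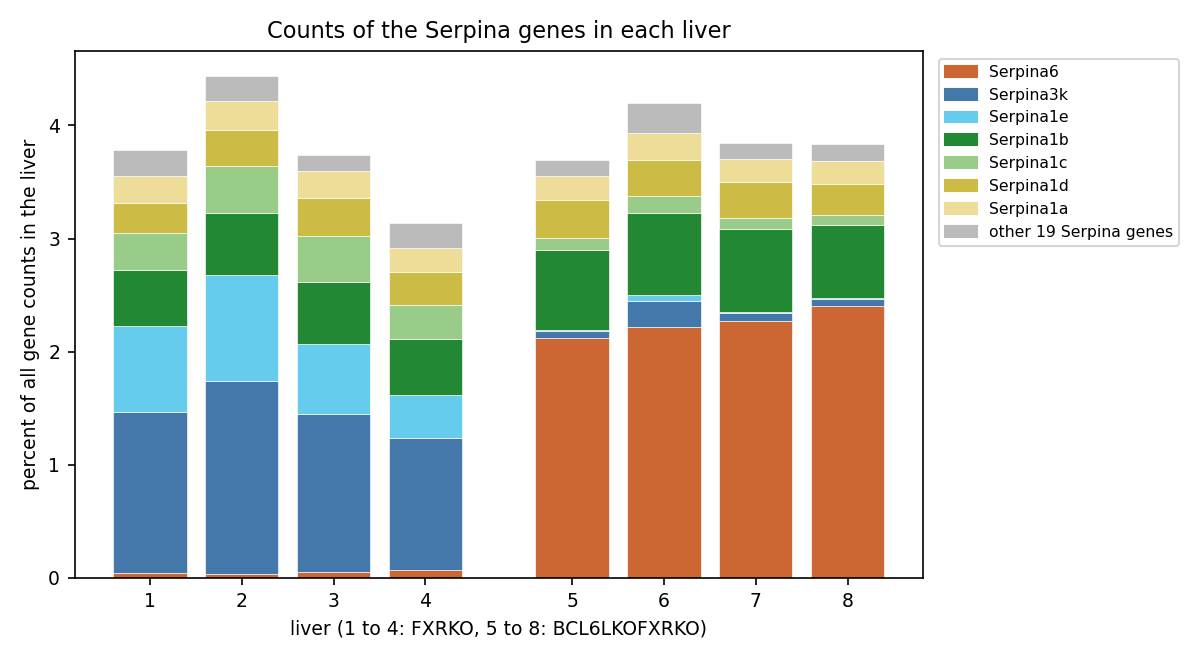
Percent of all gene counts taken by Serpina genes in each liver, stacked by gene, with livers 1 to 4 FXRKO and 5 to 8 BCL6LKOFXRKO. Column heights overlap between genotypes (means 3.77% and 3.89%), while Serpina6 fills 52.9% to 62.8% of each BCL6LKOFXRKO column. In each FXRKO column, Serpina3k fills 37.1% to 38.6% and Serpina1e 12.3% to 21.0%.

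The promoter table held 6 of the 10 genes and 19 of the 26 Serpina genes, and motifs were searched on both strands of 300-base windows, running from 250 bases before to 50 after each start, of 32851 mouse promoters. Serpina6, Serpina10, Serpina3k and Serpina3m had no promoter there and were not searched. TTCNNNGAA, the core shared by STAT sites and many BCL6 sites, was in 8.3% of all promoters. Among the 6 searched of the 10 genes, it was in that of Serpina11 alone. Serpina1f, Serpina3f, Serpina3g and Serpina3i also held it. The glucocorticoid receptor element was in 3.11% of promoters and in those of Serpina3n, Serpina3c, Serpina3f and Serpina3i. TATAAA was in 13.6% of promoters, those of Serpina7, Serpina3a, Serpina3b, Serpina3c and Serpina3f among them. Matches of letters are a description of these windows and say nothing of binding.

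The genes whose pattern over the 8 livers lay closest to the most changed members were found by distance between centred log2 CPM profiles, among 9076 genes. Among those closest to Serpina6 were Dnah11 (an axonemal dynein, distance 0.705) and Gpx3 (secreted glutathione peroxidase, 1.22). Gpx3 went from 11.97 to 757 CPM and Dnah11 from 0.361 to 37.0 CPM. Dnah11 was near the floor of 3 counts per library in FXRKO livers, so its distance rests on few counts there. Closest to Serpina1e were Scara5 (a ferritin receptor, 1.65), Ces3b (a carboxylesterase, 2.89) and Slco1a1 (an organic anion transporter, 3.38). Scara5 went from 40.1 to 1.03 CPM and Ces3b from 382 to 11.9 CPM. These are likenesses over 8 livers of 2 genotypes, with no p.

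The partners of the Serpina proteins were then followed in lists of genes with known roles, each gene tested with edgeR's quasi-likelihood test across all genes. Over all tested genes, 14.1% were called higher and 9.84% lower. The list of proteases comprised serpin targets and related enzymes of blood and liver, and 9 of its 25 tested genes were called higher and 0 lower. Its median log2 fold change was 0.30 beside 0.01 for all genes, and 10 of the 25 had a negative value. At an unadjusted p under 0.05, 13 were higher and 2 lower. DESeq2 and limma voom also called 0 lower, while 1 was called lower with scaling to total counts and 1 without BCL6LKOFXRKO liver 6. With at least 10 counts in every liver, 7 were called higher. The lists were chosen with earlier results of these data known, so their counts are a description. F7, the trigger of the extrinsic coagulation pathway, rose from 108 ± 4.18 to 320 ± 46.3 CPM (log2 fold change 1.56 ± 0.12, edgeR adjusted p = 1.21e-06). F10, the protease that the Serpina10 product inhibits once activated, rose from 460 ± 8.45 to 907 ± 141 CPM (log2 fold change 0.98 ± 0.13, edgeR adjusted p = 9.14e-05). Hgfac, the activator of hepatocyte growth factor, rose from 206 ± 18.5 to 372 ± 27.7 CPM (0.85 ± 0.11 log2, edgeR adjusted p = 0.00011). Proz, for the protein Z that Serpina10's product needs, was 460 and 547 CPM and did not pass (edgeR adjusted p = 0.119).

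Beside Serpina6, genes that bind, convert or respond to glucocorticoids were split. Of 28 tested, 3 rose and 7 fell, beside 14.1% and 9.84% of all tested genes, with a median log2 fold change of -0.25. Srd5a1, the steroid reductase that inactivates corticosterone, fell from 104 ± 19.3 to 19.7 ± 2.75 CPM (log2 fold change -2.40 ± 0.15, edgeR adjusted p = 1.7e-07). Ugt2b1, a steroid-conjugating enzyme, fell from 760 ± 151 to 154 ± 46.0 CPM and Tdo2, the tryptophan dioxygenase that glucocorticoids induce, from 964 ± 121 to 252 ± 42.9 CPM. The genes that rose were Sgk1 (14.6 ± 3.66 to 39.5 ± 13.2 CPM), Fkbp5 (70.5 ± 31.4 to 151 ± 20.0 CPM) and Mt1 (319 ± 105 to 815 ± 377 CPM, overlapping between genotypes), all of which glucocorticoids are known to induce. Tsc22d3 and Pck1, induced by the same hormone, fell (138 to 36.6 and 2613 to 857 CPM). They were named after their values were seen, and whether the hormone's action differed between the genotypes was not tested. Nr3c1, the glucocorticoid receptor, was 48.2 and 34.8 CPM and did not pass (edgeR adjusted p = 0.0692). Hsd11b1, which regenerates active glucocorticoid in liver, was 401 and 470 CPM (edgeR adjusted p = 0.348).

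Beside Serpina7, 6 of 26 tested genes of thyroid hormone transport, conversion and response rose and 8 fell. The shares over all tested genes were 14.1% and 9.84%, and the median log2 fold change of the list was -0.29. Dio1, the deiodinase that activates thyroxine in liver, fell from 230 ± 18.8 to 106 ± 18.9 CPM (log2 fold change -1.11 ± 0.14, edgeR adjusted p = 5.69e-05). Of the transporters, Slco1b2 fell from 1148 ± 115 to 332 ± 74.8 CPM and Slco1a1 from 261 ± 45.8 to 1.48 ± 0.68 CPM, while Slc17a4 rose from 23.4 ± 4.34 to 63.9 ± 11.04 CPM. Hr, which thyroid hormone is known to induce, rose from 1.08 ± 0.49 to 4.88 ± 1.93 CPM, as did Sult1a1, a sulfotransferase (330 ± 29.9 to 512 ± 24.1 CPM). Thrb, the main hepatic thyroid hormone receptor, fell from 22.7 ± 2.56 to 11.796 ± 3.15 CPM (edgeR adjusted p = 0.00265).

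Other plasma carriers of hormones and vitamins mostly rose where they were called, 5 of 13 tested higher and 1 lower. The shares over all tested genes were 14.1% higher and 9.84% lower. Alb went from 44554 ± 4422 to 135488 ± 8122 CPM, Gc (vitamin D-binding protein) from 6513 ± 254 to 10362 ± 758 CPM and Igfbp2 from 234 ± 62.5 to 460 ± 127 CPM. Ttr, transthyretin, the other specific carrier of thyroxine, fell from 4236 ± 373 to 2505 ± 489 CPM (log2 fold change -0.76 ± 0.15, edgeR adjusted p = 0.0022).

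In the signalling list for the acute phase response and growth hormone, 3 of 23 tested genes rose and 3 fell. Neither count was far from the shares over all tested genes (14.1% higher, 9.84% lower), so nothing is read from them. Lifr, the receptor of leukaemia inhibitory factor, rose from 350 ± 60.6 to 2169 ± 764 CPM, Ghr, the growth hormone receptor, from 421 ± 37.0 to 2028 ± 340 CPM, and Socs2, a feedback inhibitor of that receptor, from 14.9 ± 7.28 to 47.7 ± 27.0 CPM. Il1rap, a subunit of the interleukin receptor complex, fell from 110 ± 19.0 to 26.0 ± 4.97 CPM, Cebpb from 56.0 ± 6.998 to 36.5 ± 4.80 CPM and Nfkbia from 41.3 ± 1.75 to 28.4 ± 3.28 CPM. Stat3, the factor that carries interleukin signals to acute phase genes, was 207 and 195 CPM and did not pass (edgeR adjusted p = 0.765).

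Of 14 tested hepatocyte transcription factors, 4 were called lower and 0 higher, beside 9.84% and 14.1% of all tested genes. A positive log2 fold change was found in 5 of the 14. At an unadjusted p under 0.05, 0 were higher, and DESeq2 and limma voom also called 0 higher. Nr0b2, the repressor SHP and 1 of the 4, went from 12.4 ± 3.75 to 0.871 ± 0.47 CPM. It passed the filter on low counts only through FXRKO livers, so its test is not given. Foxa1 fell from 16.5 ± 3.66 to 5.37 ± 2.21 CPM and Cebpa from 443 ± 72.5 to 273 ± 38.4 CPM. Hnf4a was 761 and 670 CPM (edgeR adjusted p = 0.41).

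Among 34 tested genes for the export, disposal and uptake of serpins, 7 rose and 2 fell, beside 14.1% and 9.84% of all tested genes. Asgr2, a subunit of the receptor that clears desialylated plasma proteins, rose from 160 ± 10.8 to 493 ± 63.4 CPM (log2 fold change 1.62 ± 0.12, edgeR adjusted p = 7.85e-07), Sdc1, a heparan sulfate proteoglycan, from 221 ± 32.9 to 589 ± 23.9 CPM and Vldlr from 2.06 ± 0.53 to 11.7 ± 3.42 CPM. Edem3, which trims glycans of misfolded proteins for disposal, fell from 24.5 ± 2.19 to 14.2 ± 3.79 CPM and Derl3, of the retrotranslocation channel, from 3.94 ± 1.29 to 1.31 ± 0.93 CPM with overlap. Lman1, the cargo receptor that carries α1-antitrypsin out of the endoplasmic reticulum, was 211 and 167 CPM, below the fold threshold (log2 fold change -0.34, edgeR adjusted p = 0.0306).

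In the other serpin clades, 2 of 13 tested genes rose and 2 fell, beside 14.1% and 9.84% of all tested genes, so nothing is read from these counts. Serpinc1, antithrombin, rose from 1577 ± 71.7 to 2931 ± 132 CPM (log2 fold change 0.89 ± 0.11, edgeR adjusted p = 7.34e-05) and Serpinb6a from 14.8 ± 1.22 to 77.5 ± 29.8 CPM. Serpine2, protease nexin, fell from 13.1 ± 6.18 to 2.02 ± 1.33 CPM and Serpinb1a, an inhibitor of neutrophil proteases, from 11.2 ± 2.05 to 6.01 ± 1.67 CPM. The hepatocyte-made Serpinf2, Serping1 and Serpind1 did not pass (edgeR adjusted p = 0.756, 0.579 and 0.899).

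**Figure D4:**
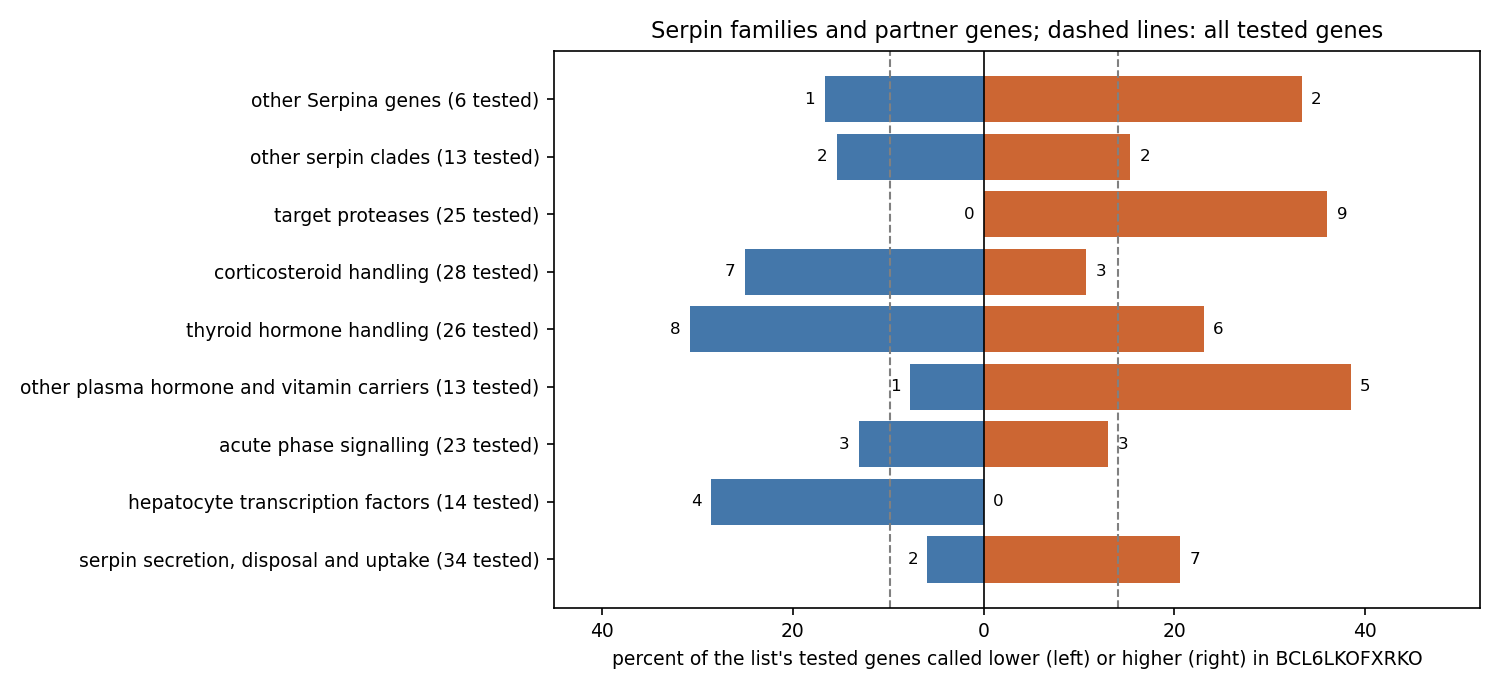
Percent of the tested genes of each list called lower (left, blue) or higher (right, orange) in BCL6LKOFXRKO livers, with the number of genes at each bar and dashed lines at the shares over all 12340 tested genes (9.84% lower, 14.1% higher). Target proteases show 9 of 25 genes higher and 0 lower, and hepatocyte transcription factors 4 of 14 lower and 0 higher. The bars include genes that passed the filter only through 1 genotype, Nr0b2 and Serpina16 among them. With at least 10 counts in every liver, 7 proteases and 1 other Serpina gene were called higher and 3 transcription factors lower.

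Markers of other liver cells moved with genotype as well. The shares over all tested genes were 14.1% called higher and 9.84% called lower. Of 10 markers of stellate cells and fibroblasts, 7 were called higher and the sum went from 227 to 318 CPM in FXRKO to 460 to 571 CPM in BCL6LKOFXRKO livers. For macrophages 3 of 10 were called higher (sums 393 to 554 and 549 to 888 CPM), for cholangiocytes 3 of 6 tested (43.1 to 69.9 and 78.6 to 138 CPM, with 2 of the 10, Cftr among them, at or under 3 counts) and for neutrophils 1 of 2 tested (2.79 to 9.05 and 9.77 to 21.4 CPM, with Ly6g at or under 3 counts). Of 10 pancreatic acinar markers, 8 were at or under 3 counts in every library, and 1 of the 2 tested, Cela1, was called lower (23.4 ± 6.67 to 8.31 ± 1.28 CPM), the sums being 15.2 to 30.6 and 9.06 to 11.4 CPM. The part of these cells in the Serpina values was not tested.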

How the data were processed

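Whole-liver RNA of 8 mice (4 FXRKO, 4 BCL6LKOFXRKO) was sequenced by the authors as 100-base single-end reads from stranded mRNA libraries. Per the study's methods and the submitters' processing notes, reads were aligned to mm10 with STAR 2.5.2, keeping uniquely mapped reads with at most 4 mismatches. The authors deposited raw counts per gene over exons (HOMER 4.10). Whether counting used strand is not given in the sources used here.

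From the counts, 12340 genes that passed edgeR's filterByExpr were fitted together (edgeR 4.0.16, R 4.3.3, TMM, robust quasi-likelihood test, Benjamini-Hochberg adjustment over all tested genes). The design was the genotype alone. Nr0b2, Cfd, Serpine2, Derl3, Hr and Slco1a1 passed the filter only through the genotype where they were higher, so their calls are given as description. The call thresholds were those of the study, whose own tool was DESeq2. DESeq2 1.42.0 and limma voom (3.58.1), other scalings and filters and fits without each liver were alternatives. Scripts were tested on simulated data. p-values measure the spread between the livers, which the labels do not tie to litters or days. With 7586241 to 11839503 counts per library, 3 counts correspond to 0.272 to 0.375 CPM.

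Promoters were aligned with MAFFT 7.526, and sequence windows were compared in Python 3.11.15. The 10 genes and all lists were chosen with earlier results of these data known. Named were the 10 genes, other Serpina genes with at least 10 counts in all, from each partner list the 3 called genes of smallest adjusted p per direction, and the 3 genes nearest in pattern to the most changed pair. Other genes (rarer Serpina genes, Proz, Tsc22d3, Pck1, Nr3c1, Hsd11b1, Thrb, Stat3, Hnf4a, Lman1, Serpinf2, Serping1, Serpind1) were named for their roles after their values were seen. Some items that these rules name are not reported here.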

Additional observations from a re-analysis of the deposited data

Results flagged for a closer look

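Of 130 comparisons of a single liver with the other 3 of its genotype, 8 exceeded the critical ratio of 0.829 (the gap to the nearest liver divided by the range), where chance at 1 in 20 gives about 6. Among the 10 genes, 3 of 20 such comparisons did. BCL6LKOFXRKO liver 6 was far above its group for Serpina1e (ratio 0.984, 598 CPM against 25.8 to 34.7), Serpina3k (0.947, 2516 CPM against 633 to 734) and Serpina3n (0.933, 1420 CPM against 460 to 524). It was also apart for Serpina3h (0.920, 1.33 CPM against 0.201 to 0.292, at 2 to 11 counts per library) and for the share of counts of the Serpina3 genes (0.974, 0.387% against 0.126% to 0.133%). In BCL6LKOFXRKO liver 8, Asgr2 was high (0.878, 587 CPM against 454 to 470) and Edem3 low (0.837, 8.54 CPM against 15.3 to 16.6). In FXRKO liver 1, Serpina3i was high (0.842, 0.624 CPM against 0.107 to 0.189, at 1 to 6 counts per library).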

How the results depend on the processing

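Of the counts of called genes recomputed under alternatives, 330 kept within 1.5 times of the reported count and 26 did not. Of the fold changes of the 10 genes, 136 kept direction and call, 14 lost the call, 5 gained it and 5 turned in sign. Serpina6, Serpina10, Serpina3k and Serpina7 kept both throughout. Scaling to total counts alone moved the median of all genes by -0.16, called 2128 genes lower (1214 reported) and made 37.3% of calls higher (58.9% reported). Under it 1 other Serpina gene was called higher, 1 target protease, 12 glucocorticoid genes, 13 thyroid hormone genes and 5 secretion genes lower, and 3 thyroid hormone genes higher, while Serpina1a turned to -0.13 and Serpina11 to -0.0017. With at least 10 counts in every liver, 1 other Serpina gene was called higher, and 1 gene each of the other clades and of secretion lower. With no filter 1 glucocorticoid gene was called higher and, as with DESeq2, 2 other Serpina genes lower. Leaving out 1 liver at a time gave 2 to 6 of the 10 genes called lower (6 without BCL6LKOFXRKO liver 6; 2 without FXRKO liver 2 or BCL6LKOFXRKO liver 5, 7 or 8), 1 to 2 other Serpina genes lower, 0 to 1 target proteases lower (1 without liver 6), 1 to 3 glucocorticoid genes higher (1 without FXRKO liver 2 or BCL6LKOFXRKO liver 8) and 1 to 3 secretion genes lower (1 without liver 8). Serpina1a ranged from -0.044 (without BCL6LKOFXRKO liver 6) to 0.067, at -0.010 without FXRKO liver 4, and Serpina11 from -0.012 (without liver 6) to 0.24. The difference in the 10 genes' share of counts (0.180 percentage points) became 0.953 without the 50 most counted other genes in the total. The causes of these shifts were not tested. No paired analysis was possible because the genotypes share no number: the library names count the livers 1 to 4 and 5 to 8, and each animal has its own number. Some animal numbers follow each other across genotypes, but the labels do not say that these mark litters or days. With 4 livers each, differences inside the printed 95% intervals cannot be resolved, and low counts left 9 of the 26 Serpina genes untested.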
